A study of Mus musculus with 4 samples.

Results

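Potassium channel genes were taken as the rows of the count tables whose mouse symbol starts with Kcn, with the antisense RNA Kcnq1ot1 left out. This gave 94 of 25567 genes, of which 67 were measured, meaning that their reads pooled over the nuclei of a library reached 5 CPM (reads of a gene per 1000000 reads) in at least 1 of 4 libraries. The data were Smart-seq2 read counts of single nuclei from the hippocampus of mice aged 8.5 months. WT mice were set against Fasn-R1812W mice, whose allele changes 1 residue of fatty acid synthase. In both genotypes, nuclei were sorted either for NeuN, a protein of mature neurons, or for EdU, a thymidine analogue built into newly copied DNA. For the EdU+ libraries, WT and Fasn-R1812W alike, the animals had 2 intraperitoneal EdU doses (100 mg per kg each) on each of 3 days, with nuclei taken on day 4. The NeuN+ labels name no EdU injection. There was 1 library for each gate and genotype, and values below follow the order NeuN+ WT, then NeuN+ Fasn-R1812W, then EdU+ WT, then EdU+ Fasn-R1812W. The labels give no number of animals and do not say whether the allele is on 1 or both chromosomes.

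Potassium channels let potassium ions leave or enter a cell and so set its resting voltage, end its action potentials and space its firing. Most of them are built from several pore-forming subunits that line a narrow selectivity filter, and auxiliary subunits without a pore alter their gating or traffic. In the hippocampus, granule cells, pyramidal neurons and interneurons are known for different channel sets, and glia carry inward rectifiers that buffer potassium around neurons. In bulk sums of nuclei such as those below, fewer nuclei of a type and less RNA per nucleus cannot be told apart.

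Most members hold the amino acid signature of the potassium filter. The members were chosen by symbol, and these symbols name genes of potassium channels, so the signature describes the members and is no separate check. In the longest GENCODE M21 coding sequence of each gene, a script searched for 5 codons in frame: threonine or serine, then valine, isoleucine or leucine, then glycine, then tyrosine or phenylalanine, then glycine. Of 67 measured members, 49 held the signature 1 time, 6 held it 2 times and 12 did not hold it. The 6 with 2 copies were Kcnk2, Kcnk3, Kcnk4, Kcnk10, Kcnk12 and Kcnk13, which encode 2-pore-domain leak channels. Those without it were the 3 Kv beta genes, 4 KChIP genes, 2 BK beta genes, Kcne1l and Kcnrg, which are not known as pore subunits, and the leak channel gene Kcnk1. The run of 15 bases had 55 different spellings among 61 copies, so the members differed in their DNA over the signature. The stretches of members that the results turn on are shown from 9 bases before to 6 bases after the filter, with the filter codons in capitals.
Kcna1: tccatgaccACTGTGGGATACGGTgacatg
Kcnc1: accatgacgACACTGGGCTATGGAgacatg
Kcnc2: accatgactACCTTAGGTTACGGGgatatg
Kcnd2: accatgacaACACTGGGGTATGGCgacatg
Kcnh7: agtctaaccAGTGTAGGATTTGGAaatgtg
Kcnh8: agcctcacaAGCGTTGGGTTTGGGaatgtg
Kcnma1: acaatgtctACAGTGGGTTATGGGgacgtt
Kcnj3: accgaggccACCATCGGCTATGGCtaccgc
Kcnj10: tcccagaccACCATCGGCTATGGCttccgc
Kcnk2 first pore: gttatcacaACCATAGGATTTGGAaacatc
Kcnk2 second pore: actctgacgACCATTGGATTTGGAgactac
These are GENCODE M21 transcript sequences on GRCm38, and all are coding. Those of Kcnd2 and of the first pore of Kcnk2 run across a splice junction. The Kcnh7 stretch is at chr2:62777337-62777366 (minus strand, exon 8) and that of Kcnj10 at chr1:172369293-172369322 (plus strand, exon 2). The Kcnj10 and Kcnj3 runs were identical over the 15 bases. Kcnh7 and Kcnh8 were among the genes whose run starts with a serine codon.

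Promoters were read from the RefSeq table of GRCm38.p6, which listed 70 starts for 47 of the 67 measured members. Over the 250 bases before each start, GGGCGG was present on either strand in 45.7% of the members' promoters, against 32.7% of all 32851 listed promoters. CAGCTG was in 28.6% against 13.001%, and TATAAA in 4.29% against 12.4%. For ACAAAG the shares were 8.57% and 16.5%. No member promoter held TGACGTCA, against 1.55% of all. The members' promoters were also richer in G and C, with a median of 60.2% against 52.4% over all promoters. The part of base content in the motif shares was not tested. Several starts of a gene overlap, as do 3 of the 4 starts of Kcnc2, so these shares are descriptions. GGGCGG was in 8 of 15 promoters of members called higher in NeuN+ libraries below, and in 4 of 9 of those called higher in EdU+. The promoters of Kcnj10 and Kcnh7, which went opposite ways between the gates, are shown with GGGCGG or its reverse complement in capitals.
Kcnj10, chr1:172340960-172341209, plus strand: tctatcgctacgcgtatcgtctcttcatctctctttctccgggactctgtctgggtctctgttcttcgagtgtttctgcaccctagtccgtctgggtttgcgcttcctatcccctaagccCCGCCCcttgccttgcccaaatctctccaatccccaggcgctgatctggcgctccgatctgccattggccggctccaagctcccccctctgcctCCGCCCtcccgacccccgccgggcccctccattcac
Kcnh7, chr2:63184288-63184537, minus strand: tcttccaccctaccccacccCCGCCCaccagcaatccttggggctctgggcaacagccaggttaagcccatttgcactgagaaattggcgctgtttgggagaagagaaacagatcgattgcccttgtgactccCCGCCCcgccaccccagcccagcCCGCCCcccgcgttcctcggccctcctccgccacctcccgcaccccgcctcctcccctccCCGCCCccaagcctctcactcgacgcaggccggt
Both windows end at the base before the listed start, both hold GGGCGG, and neither holds any of the other motifs searched.

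The libraries differed in depth, mostly between the EdU+ pair. Total counts were 71221156, 72468235, 36368990 and 96597804 in the order given above, and 314, 301, 167 and 348 nuclei with at least 1000 genes and 50000 reads were kept of 384 wells each. Kept nuclei held medians of 4395.5 and 4417 genes in the NeuN+ libraries and 1298 and 3006 in EdU+ WT and EdU+ Fasn-R1812W. Rbfox3, which encodes NeuN, was at 151 and 171 CPM in the NeuN+ libraries and 41.5 and 24.7 CPM in the EdU+ libraries. The 12 markers of oligodendrocyte precursors were all called higher in EdU+, with sums of 555 and 540.0 CPM in the NeuN+ libraries and 15965 and 13182 CPM in the EdU+ libraries, and Pdgfra, which defines these cells, was at 0 and 10.17 CPM in NeuN+. The 14 astrocyte markers summed to 1986 and 863 CPM in the NeuN+ libraries and 5241 and 4819 CPM in the EdU+ libraries, the 12 microglia markers to 86.01 and 152 CPM in the NeuN+ libraries and 1613 and 4495 CPM in the EdU+ libraries, and the 14 leukocyte markers to 3.84 and 1.57 CPM in the NeuN+ libraries and 209.8 and 4034 CPM in the EdU+ libraries. The part of these cells in the results was not tested in the pooled sums. The point substitution in Fasn cannot be read from counts per gene, so no value here checks the genotype labels.

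Neuronal libraries carried more potassium channel RNA than EdU+ libraries and more members of the family. The 94 genes summed to 5031 CPM in NeuN+ WT, 4992 in NeuN+ Fasn-R1812W, 3014 in EdU+ WT and 2252 in EdU+ Fasn-R1812W. At least 5 CPM was reached by 58 members in each NeuN+ library, 42 in EdU+ WT and 45 in EdU+ Fasn-R1812W, and at least 100 CPM by 15, 17, 8 and 6. The share of all genes at these levels was not computed, and kept EdU+ nuclei held fewer genes of any kind. No read was found for 13, 14, 33 and 20 of the 94, where 0 reads allow up to 0.0432, 0.0427, 0.1996 and 0.0316 CPM (3 reads of the library's total, for counting error only). Just inside the limit of measurement were Kcnk4 at 5.37, Kcnrg at 5.47 and Kcng4 at 5.76 CPM in their highest library, and just outside were Kcnn4 at 4.88, Kcnq1 at 4.39 and Kcne2 at 3.91 CPM. Per kilobase of exon, the highest member was Kcnj3 in NeuN+ WT (51.3 CPM per kb), Kcnip2 in NeuN+ Fasn-R1812W (64.5), and Kcnip3 in both EdU+ libraries (125 and 95.2).

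**Figure D1:**
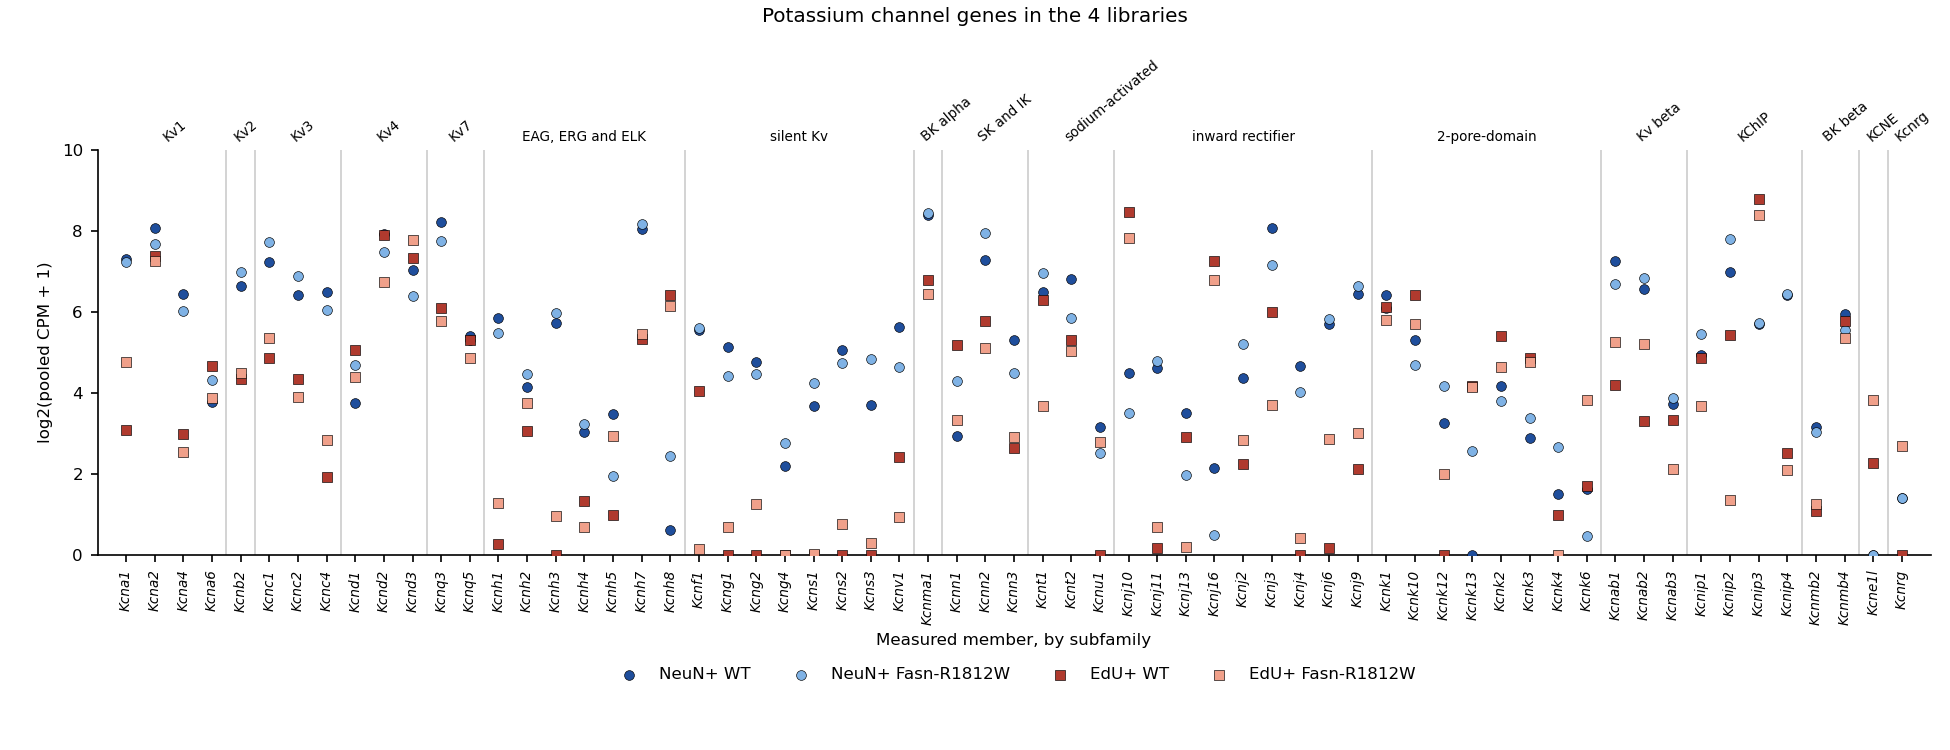
Level of 63 of the 67 measured members in the 4 libraries, as log2(pooled CPM + 1), grouped by subfamily; circles are NeuN+ and squares EdU+ libraries, dark for WT and light for Fasn-R1812W. For most members the circles lie above the squares, while Kcnj10, Kcnj16, Kcnh8 and Kcnip3 have both squares above both circles.

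Of 79 members that passed the low-count filter of the gate comparison, 18 were called higher in NeuN+ and 4 higher in EdU+ (edgeR's quasi-likelihood test over all 17411 genes, with genotype as a term and a Benjamini-Hochberg adjusted p under 0.05). Among all genes tested, 2.88% were called higher in NeuN+ and 3.85% higher in EdU+. The median log2 ratio of EdU+ over NeuN+ was -2.10 over the members and -0.16 over all genes. Both NeuN+ libraries lay above both EdU+ libraries for 48 members, the reverse held for 11, and the gates overlapped for 20. The share of all genes in each of these orders was not computed, so these counts describe the members only. The gate fit has 1 residual degree of freedom. No label says that the libraries came from separate animals, so the p-values measure only the spread between these libraries, which may be technical. The count in NeuN+ was 34 by DESeq2, whose share of all genes called is not given here. Leaving out 1 library, with gate as the only term, moved the count in both directions, as given in the closing section. Such fits hold 1 library in a gate. With nuclei of at least 2000 genes and 100000 reads, which left 5 EdU+ WT nuclei, no member was called by edgeR and the Kcnip3 ratio below turned to -1.70. All 67 measured members were tested, and the subfamilies are described below by role, with levels in each library as pooled CPM.

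Channels that repolarize the action potential are taken first. Of the Kv1 genes, 2 of 6 tested were called, both higher in NeuN+. Kcna1, a Kv1 subunit of axons, was at 156 CPM in NeuN+ WT, 149 in NeuN+ Fasn-R1812W, 7.45 in EdU+ WT and 26.05 in EdU+ Fasn-R1812W, so the gates did not overlap (log2 ratio -3.47, adjusted p = 0.0221). Kcna4, its inactivating relative, was also called (86.1 and 63.6 CPM in NeuN+ and 6.98 and 4.82 CPM in EdU+; log2 ratio -3.71, adjusted p = 0.0205). Kcna2 was above 100 CPM in all libraries, at 269 CPM in NeuN+ WT, 205 in NeuN+ Fasn-R1812W, 165 in EdU+ WT and 152 in EdU+ Fasn-R1812W, and did not pass the test (adjusted p = 0.353). Kcna6 lay between 12.7 and 24.4 CPM. Kcnb2, a Kv2 gene whose channel carries slow delayed rectifier current in cell bodies, was at 99.3 and 125 CPM in NeuN+ against 19.5 and 21.4 CPM in EdU+ (log2 ratio -2.48, adjusted p = 0.0266). Leaving out 1 library, with gate as the only term, ended the call of Kcna4 without NeuN+ WT (adjusted p = 0.114) and that of Kcnb2 without NeuN+ Fasn-R1812W (0.105).

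Of the Kv3 genes, which allow fast firing, Kcnc1, Kcnc2 and Kcnc4 were higher in NeuN+. Kcnc1 was at 148 CPM in NeuN+ WT, 211 in NeuN+ Fasn-R1812W, 28.2 in EdU+ WT and 40.1 in EdU+ Fasn-R1812W, with both NeuN+ libraries above both EdU+ libraries (log2 ratio -2.43, adjusted p = 0.0138). Kcnc2 was at 84.5 and 117 CPM against 19.4 and 13.98 CPM (log2 ratio -2.63, adjusted p = 0.0350), and Kcnc4 at 89.1 and 65.8 CPM against 2.79 and 6.12 CPM (log2 ratio -4.23, adjusted p = 0.0229). With gate as the only term, the Kcnc2 call was lost without NeuN+ Fasn-R1812W (adjusted p = 0.146) and the Kcnc4 call without NeuN+ WT (0.0738). All Kcnc4 reads of EdU+ WT came from 1 nucleus. No Kv4 gene passed the test. Kcnd2, a main subunit of the A-type current of dendrites, was at 241 CPM in NeuN+ WT, 177 in NeuN+ Fasn-R1812W, 237 in EdU+ WT and 106 in EdU+ Fasn-R1812W, so the EdU+ WT library was level with the neuronal ones (adjusted p = 0.568). Kcnd3 was at 130.1 and 83.0 CPM in NeuN+ and 161 and 218 CPM in EdU+, with the EdU+ libraries above but not called (adjusted p = 0.315).

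Kv7, BK and SK channels, which hold back repeated firing, included Kcnq3, Kcnma1 and Kcnn2 among the members higher in NeuN+. Kcnq3, a subunit of the M-current channel, was at 299.9 CPM in NeuN+ WT, 216 in NeuN+ Fasn-R1812W, 67.3 in EdU+ WT and 54.3 in EdU+ Fasn-R1812W, with both NeuN+ libraries above both EdU+ libraries (log2 ratio -2.10, adjusted p = 0.0150). Kcnq5 was nearly level, at 41.8 and 38.9 CPM against 38.5 and 28.2 CPM (adjusted p = 0.845). Kcnma1, the pore of the BK channel opened by calcium and voltage, was at 339 CPM in NeuN+ WT, 349.6 in NeuN+ Fasn-R1812W, 109 in EdU+ WT and 85.6 in EdU+ Fasn-R1812W (log2 ratio -1.87, adjusted p = 0.0200). The BK beta subunit Kcnmb4 was at 61.3 and 45.9 CPM against 54.1 and 40.2 CPM and did not pass. Kcnn2, an SK channel opened by calcium, was at 155 and 246 CPM against 54.3 and 33.8 CPM (log2 ratio -2.22, adjusted p = 0.0331), a call lost without NeuN+ Fasn-R1812W (adjusted p = 0.0817), and Kcnn1 and Kcnn3 were not called. The sodium-activated channels Kcnt1 (89.7 and 124 CPM against 78.0 and 11.8 CPM) and Kcnt2 (111 and 56.5 CPM against 38.6 and 31.7 CPM) did not pass either. Among the members named here, exons of Kcna6, Kcnab1, Kcnab3, Kcnd3, Kcng2, Kcnh3, Kcnh7, Kcnip4, Kcnj3, Kcnj6, Kcnj9, Kcnj13, Kcnk1, Kcnk2, Kcnk3, Kcnma1, Kcnmb4, Kcnn1, Kcnn2, Kcnq1, Kcnq5 and Kcnt2 overlap a transcript of the opposite strand, by 1 base in Kcnh3. Whether the counting used strand is not given in the sources used here, so reads of such pairs cannot be told apart and these levels are uncertain. Exons of Kcnab2 and Kcnk4 overlap a gene of the same strand (Gm16334 and Catsperz), where strand would not help, so their levels are uncertain too.

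The EAG, ERG and ELK genes went both ways. Kcnh7, an ERG channel, was at 263 CPM in NeuN+ WT, 287 in NeuN+ Fasn-R1812W, 39.6 in EdU+ WT and 43.2 in EdU+ Fasn-R1812W, far apart between the gates and close within them (log2 ratio -2.76, adjusted p = 0.00713). Its exons overlap those of Gca on the opposite strand over 696 bases. The EAG gene Kcnh1 was at 57.1 and 43.6 CPM against 0.1996 and 1.46 CPM (log2 ratio -6.33, adjusted p = 0.0302), and the ELK gene Kcnh3 at 51.8 and 62.2 CPM against 0 and 0.960 CPM (adjusted p = 0.0310). Kcnh8, another ELK gene, was the reverse, at 0.532 CPM in NeuN+ WT, 4.40 in NeuN+ Fasn-R1812W, 84.7 in EdU+ WT and 70.1 in EdU+ Fasn-R1812W (log2 ratio 5.59, adjusted p = 0.0296). Without genotype as a term, the adjusted p was 0.0582 for Kcnh3 and 0.0558 for Kcnh8, and without NeuN+ WT it was 0.0753 for Kcnh1. For Kcnh8, over all alternatives the adjusted p ran from 1.13e-08 with DESeq2 to 1 with the stricter filter on nuclei. Kcnh2, Kcnh4 and Kcnh5 were not called and stayed at or under 21.0 CPM. Silent Kv subunits, which form no channel alone but alter Kv2 channels, were low in EdU+ libraries, where the 10 genes of the group summed to 20.02 CPM in WT and 3.98 in Fasn-R1812W, against 219 and 191 CPM in NeuN+. Of the 8 measured ones only Kcns1 passed the test, at 11.8 and 17.8 CPM against 0 and 0.0105 CPM (adjusted p = 0.0453), and the other 7 had adjusted p from 0.0604 to 0.258. The Kcns1 call was lost without NeuN+ WT (adjusted p = 0.0797), without NeuN+ Fasn-R1812W (0.182), with no filter on low counts (0.0545) and after thinning (0.0660). Fitted ratios of genes with no read in a library depend on the prior count and are not bounds.

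Inward rectifiers divided between gates. Kcnj10, the main potassium-buffering channel of glia, was at 21.4 CPM in NeuN+ WT, 10.3 in NeuN+ Fasn-R1812W, 356 in EdU+ WT and 226 in EdU+ Fasn-R1812W (log2 ratio 4.22, adjusted p = 0.00309). Kcnj16, which assembles with Kcnj10, was at 3.42 CPM in NeuN+ WT, 0.399 in NeuN+ Fasn-R1812W, 151 in EdU+ WT and 110.4 in EdU+ Fasn-R1812W (log2 ratio 6.70, adjusted p = 0.00855). Both were higher in both EdU+ libraries than in either NeuN+ library. In NeuN+ WT, 42.8% of the Kcnj10 reads came from 1 nucleus, and in NeuN+ Fasn-R1812W 48.8%. The G protein-gated genes of neurons were the opposite. Kcnj3 was at 267 CPM in NeuN+ WT, 143 in NeuN+ Fasn-R1812W, 62.7 in EdU+ WT and 11.96 in EdU+ Fasn-R1812W (log2 ratio -2.87, adjusted p = 0.0178), with exons that share 1621 bases with an opposite-strand transcript. The Kcnj3 call was lost with gate as the only term (adjusted p = 0.112) and also without NeuN+ WT (0.181). Kcnj9 was at 86.1 and 98.8 CPM against 3.39 and 7.09 CPM (log2 ratio -4.26, adjusted p = 0.0121). Their relative Kcnj6 was at 51.2 and 55.7 CPM against 0.133 and 6.31 CPM and did not pass (adjusted p = 0.0974), and neither did the strong rectifiers Kcnj2 and Kcnj4, the ATP-sensitive channel gene Kcnj11 or Kcnj13.

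The leak channels showed no call among 10 tested. The 14 genes of the 2-pore-domain group, 8 of them measured, summed to 162 and 144 CPM in NeuN+ and 246 and 189 in EdU+. Kcnk1 was at 84.6 and 67.0 CPM against 68.3 and 55.2 CPM, and Kcnk10 at 38.5 and 24.8 CPM against 85.3 and 51.0 CPM (adjusted p = 0.763 and 0.320). The stretch- and lipid-gated Kcnk2 was at 17.1 and 13.01 CPM against 41.1 and 23.8 CPM (adjusted p = 0.542). The acid-sensitive Kcnk9 was not measured.

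Auxiliary subunits had a call in each direction. The KChIP family binds Kv4 channels and senses calcium, and Kcnip3 also encodes a repressor of transcription. Kcnip3 was at 51.0 CPM in NeuN+ WT, 52.3 in NeuN+ Fasn-R1812W, 444 in EdU+ WT and 337 in EdU+ Fasn-R1812W (log2 ratio 2.87, adjusted p = 0.00593), so both EdU+ libraries lay above both NeuN+ libraries. Thinned to 50000 reads, 34.7% of EdU+ WT and 47.1% of EdU+ Fasn-R1812W nuclei had a Kcnip3 read (unthinned 37.1% and 73.9%). Kcnip4 was the opposite, at 85.0 and 86.2 CPM against 4.72 and 3.26 CPM (log2 ratio -4.48, adjusted p = 0.0104). Kcnip2 was at 127 CPM in NeuN+ WT, 224 in NeuN+ Fasn-R1812W, 42.2 in EdU+ WT and 1.57 in EdU+ Fasn-R1812W. Kcnip1 was at 29.5 CPM in NeuN+ WT, 42.7 in NeuN+ Fasn-R1812W, 27.9 in EdU+ WT and 11.7 in EdU+ Fasn-R1812W. Neither passed the test. A single nucleus held 63.6% of the Kcnip2 reads of EdU+ WT. The Kv beta genes Kcnab1 (152 and 103 CPM against 17.5 and 37.5 CPM) and Kcnab2 (93.3 and 114 CPM against 8.98 and 36.3 CPM) fell short of the threshold (adjusted p = 0.0639 and 0.0621), and Kcnab3 stayed under 14 CPM. The KCNE family had 1 measured member, Kcne1l, with no read in NeuN+ and 3.86 and 13.2 CPM in EdU+. Among 33 listed partners of these channels, 31 were tested and 5 were higher in NeuN+, among them Cntnap2, Lgi1, Dlg2 and Nedd4l, with none higher in EdU+. Lgi1, a secreted protein that acts on Kv1 channels, was at 480.2 and 381 CPM in NeuN+ and 102 and 51.4 CPM in EdU+. The Kv4 partner Dpp6 was at 278 and 241 CPM in NeuN+ and 195 and 207 CPM in EdU+ and was not called.

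**Figure D2:**
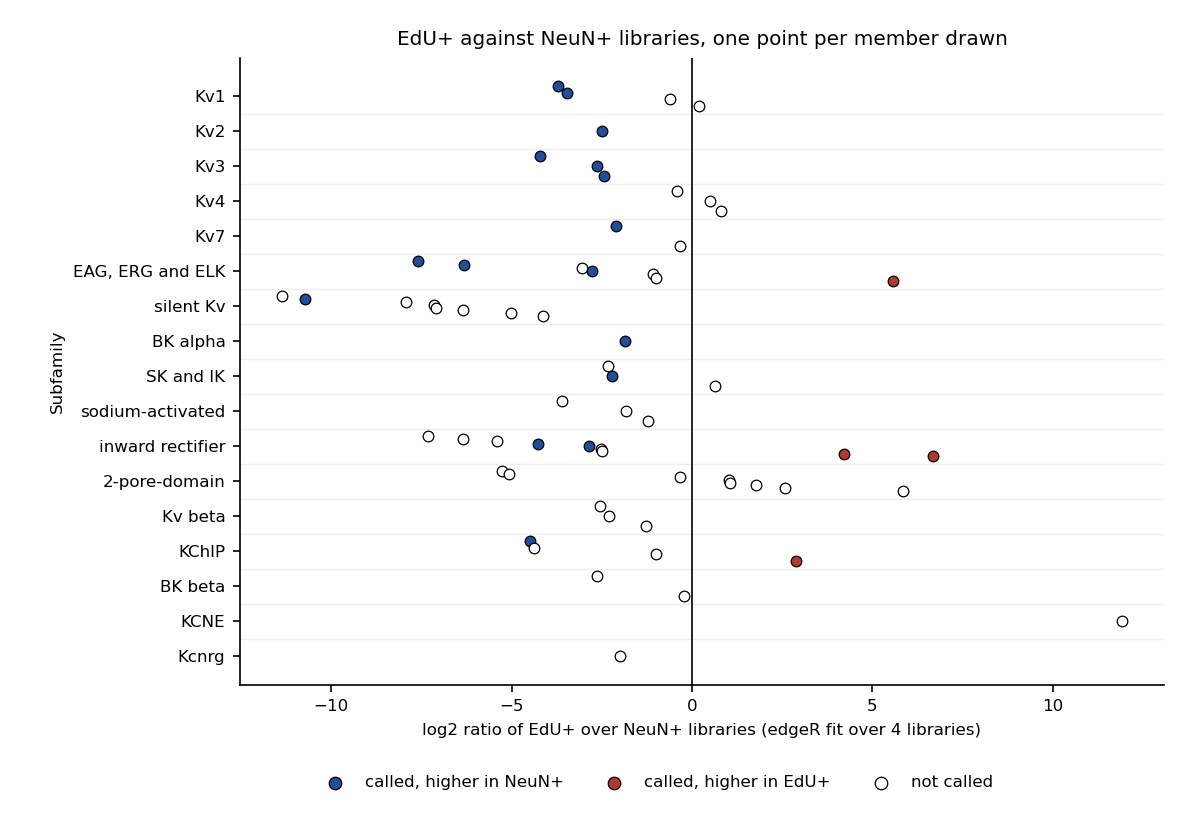
Log2 ratio of EdU+ over NeuN+ libraries from the edgeR fit, a point for each of 63 of the 67 measured members in rows of subfamilies; blue and red points were called higher in NeuN+ and in EdU+, and white points were not called. The 16 blue points lie left of 0 and the 4 red points, Kcnip3, Kcnj10, Kcnh8 and Kcnj16, lie right of it at 2.87 to 6.70; the farthest white points have a library with no read.

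Classes of nuclei were then compared. Each gate was clustered with the Kcn genes left out, and a cluster was named only from listed markers. Among NeuN+ nuclei, 75 WT and 40 Fasn-R1812W nuclei were dentate granule neuron-like, 51 and 77 CA1 pyramidal neuron-like, 42 and 42 GABAergic interneuron-like, 12 and 32 CA3 pyramidal neuron-like and 11 and 20 subicular or entorhinal neuron-like. The CA3 name rests on little, since that cluster was led by Ifi203 and Mndal and only 1 of its 10 leading genes was a CA3 marker. Mossy neuron markers came close behind there, with a mean log2 fold of 1.14 against 1.55 for CA3 markers. A further 119 and 90 NeuN+ nuclei stayed unnamed, and 4 WT nuclei were astrocyte-like. Of the unnamed nuclei, 58 and 39 were in a cluster that scored highest for granule markers. Another 25 and 17 were in a cluster that scored highest for CA3 markers, so the CA3 class may lack such nuclei. Both scores were against the pooled EdU+ nuclei. Class differences below are descriptions of 1 library per genotype, with no test, and a member counts as called when it was at least 2-fold apart in the same direction in both libraries, after adding 1 CPM. The higher class also had to reach 10 CPM with at most 50% of the reads from 1 nucleus, in both libraries.

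Of 35 members compared between granule and CA1 classes, 3 were higher in granule and 6 in CA1 nuclei, where 6.21% and 7.65% of 8861 genes were. The median log2 ratio of granule over CA1 was -0.01 for the members and -0.02 for all genes. Kcnh7, the ERG channel, was at 721 and 635 CPM in CA1 nuclei of WT and Fasn-R1812W and 73.8 and 59.3 CPM in granule nuclei (log2 ratios -3.27 and -3.40). In subicular or entorhinal nuclei it was higher still in both libraries, at 1196 and 753 CPM. Kcnn2, the SK channel, was at 369 and 381 CPM in CA1 and 58.7 and 152 CPM in granule nuclei. Kcnq5, an M-current gene, was at 50.4 and 34.1 CPM in CA1 nuclei, against 0.488 and 0.0828 CPM in granule nuclei. The granule class thus held few Kcnq5 reads. Kcnc2 (120.4 and 100.3 CPM against 6.12 and 7.87 CPM), Kcnh3 (117 and 89.5 CPM against 27.6 and 32.8 CPM) and Kcnt1 (91.0 and 74.4 CPM against 9.65 and 1.24 CPM) were also higher in CA1 nuclei. Higher in granule nuclei were the Kv3 gene Kcnc4, at 99.6 and 105 CPM against 22.3 and 21.5 CPM, the Kv1 gene Kcna1, at 195 and 144 CPM against 85.0 and 44.0 CPM, and the inward rectifier Kcnj4, at 23.1 and 33.5 CPM against 8.38 and 9.47 CPM. By subfamily, EAG, ERG and ELK genes summed to 850.0 and 751 CPM in CA1 and 218 and 164 in granule nuclei, and inward rectifiers to 441 and 330.2 CPM in CA1 and 668 and 617 in granule nuclei. The count higher in granule nuclei was 8 with a clustering resolution of 0.6, where the granule class had 133 and 79 nuclei, 5 with 1.5, and 7 with nuclei assigned singly by marker score.

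Interneuron-like nuclei were compared next. Against the granule and CA1 nuclei summed, 10 of 40 members were higher and 12 lower, where 6.0% and 9.15% of 9853 genes were. Kcnip1, the calcium sensor of Kv4 channels, was the most uneven, at 169.7 and 212 CPM in interneuron nuclei and 0.144 and 0.219 CPM in the excitatory nuclei (log2 ratios 7.22 and 7.45). The fast-firing genes Kcnc1 (360.1 and 834 CPM against 134 and 101 CPM) and Kcnc2 (459.6 and 497 CPM against 44.5 and 59.5 CPM) were higher there too, and Kv3 genes summed to 862 and 1390.3 CPM in interneuron nuclei, 339 and 395 in granule and 223 and 193 in CA1 nuclei. The silent subunit Kcns3 was at 60.5 and 152 CPM against 3.42 and 3.98 CPM, the ERG gene Kcnh2 at 87.4 and 80.1 CPM against 5.76 and 1.57 CPM, and the BK beta subunit Kcnmb2 at 43.0 and 47.0 CPM against 5.98 and 0.0730 CPM. Kcna2, Kcna6, Kcnd3 and Kcnt1 made up the 10, with Kcna2 at 425 and 360.3 CPM against 169 and 142 CPM. Kcna6 exons share 2355 bases with an opposite-strand transcript. The Kcnd3 ratio in WT turned negative with 30 principal components (-0.65) and with the Kcn genes kept in the clustering (-0.53).

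The 12 members lower in interneuron nuclei included relatives of those that were higher. Kcnd2 was at 129 and 46.1 CPM in interneuron nuclei and 306 and 282 CPM in excitatory nuclei, while its relative Kcnd3 was the reverse (259.9 and 128 CPM against 93.5 and 38.7 CPM). Among the KChIPs, Kcnip3 (1.78 and 5.56 CPM against 42.6 and 39.9 CPM) and Kcnip4 (23.7 and 35.3 CPM against 104 and 79.2 CPM) were lower where Kcnip1 was higher. Of the BK beta genes, Kcnmb4 was at 10.25 and 15.4 CPM against 58.0 and 45.7 CPM, opposite to Kcnmb2. Kv4, KChIP and BK beta genes thus each held a member higher and a member lower in interneuron nuclei. Kcnq3 (126 and 67.7 CPM against 413 and 281 CPM), the G protein-gated Kcnj3 (102 and 90.4 CPM against 356 and 189 CPM) and Kcnj6 (17.3 and 22.3 CPM against 84.0 and 85.3 CPM) were lower as well, and so were Kcng2, Kcnh3, Kcna4 and Kcnk2.

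Over the 5 named neuron classes, 44 members reached 30 CPM in some class of both NeuN+ libraries. For 29 of these the class with the highest level was the same in WT and Fasn-R1812W. Interneuron nuclei led for 8 of them, granule nuclei for 6, subicular or entorhinal nuclei for 6, CA1 nuclei for 5 and CA3-like nuclei for 4. No limit on the reads from 1 nucleus was set for these counts. The same share over all genes was not computed, so they describe the members only. Kcnma1 was highest in the CA3-like nuclei (537 and 517 CPM), whose name rests on little. Next were subicular nuclei (492 and 365 CPM), against 229.9 and 203 CPM in interneuron nuclei. Kcnj3 was highest in granule nuclei (398 and 192 CPM), with CA1 nuclei next (273 and 188 CPM, so the Fasn-R1812W values lay close). Kcnn2 was highest in subicular or entorhinal nuclei (418 and 993 CPM). Levels in classes of 11 to 32 nuclei rest on few nuclei, and 54.5% of the Kcnd2 reads of the WT subicular class came from 1 nucleus.

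**Figure D3:**
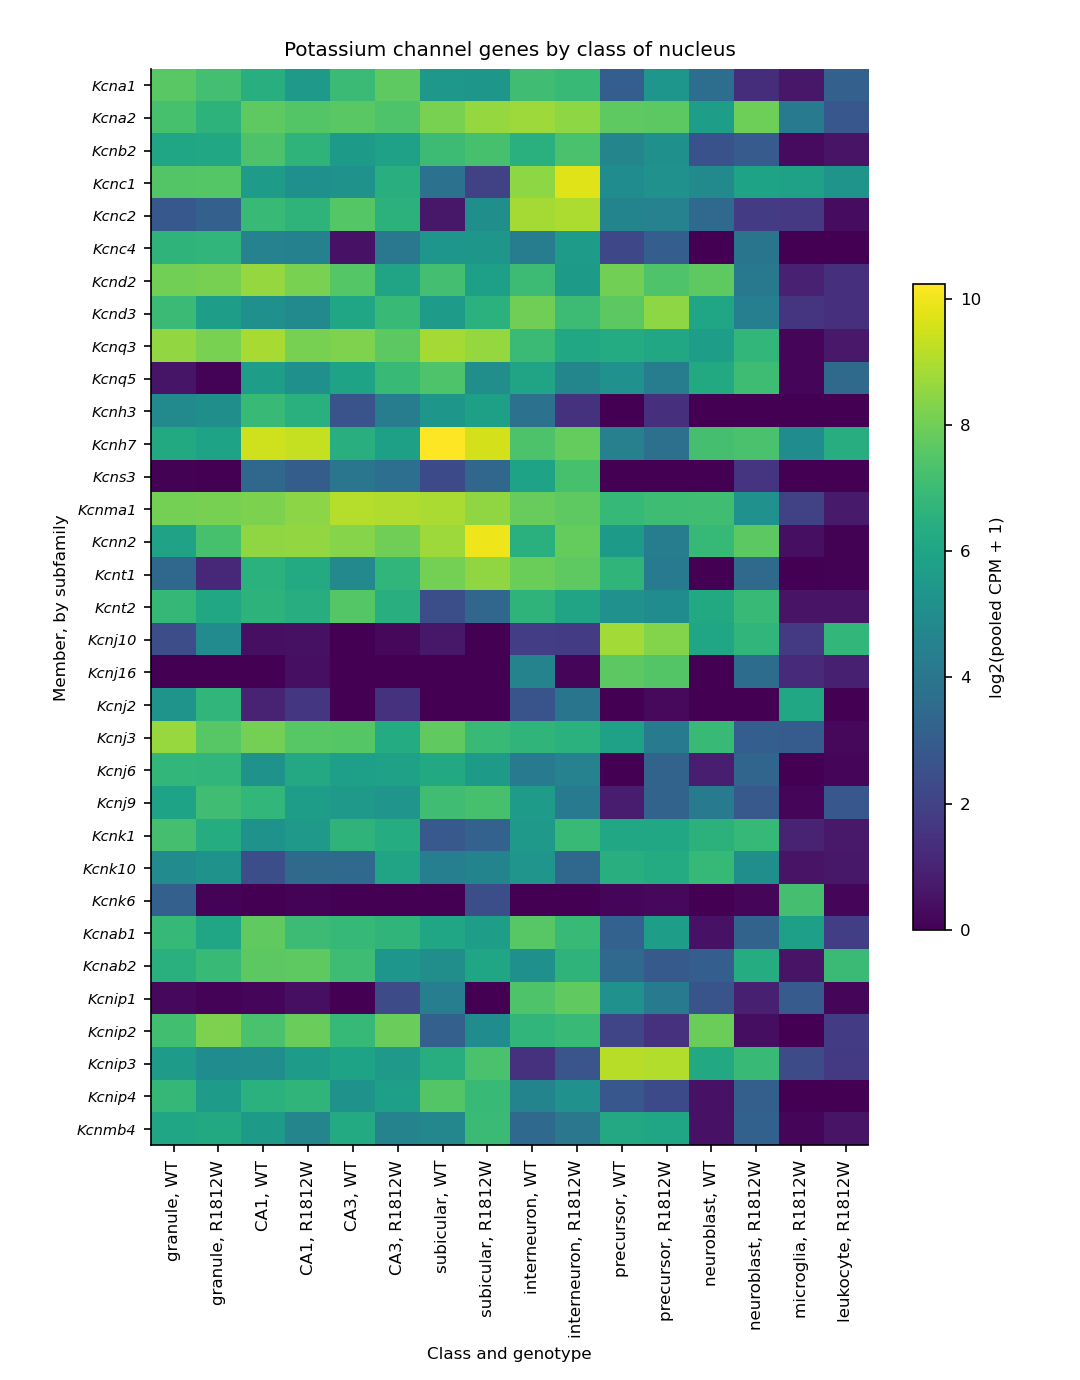
Pooled level, as log2(CPM + 1), of 33 members that reached 100 CPM in at least 1 of the classes drawn, in rows by subfamily; columns are classes of at least 10 nuclei in WT and Fasn-R1812W (R1812W) libraries. Kcnip1, Kcnc1 and Kcnc2 are brightest in interneuron columns, Kcnh7 in CA1 and subicular columns, and Kcnip3, Kcnj10 and Kcnj16 in precursor columns.

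Among EdU+ nuclei, 135 WT and 231 Fasn-R1812W nuclei were oligodendrocyte precursor-like, 23 and 41 neuroblast-like, 6 and 45 leukocyte-like and 3 and 31 microglia-like. The neuroblast class was led by Igfbpl1 and Srrm4 together with cycling genes such as Top2a. The 2 libraries filled the clusters of the precursor class unevenly, with 72 of the 135 WT nuclei in clusters 0 and 2 and 90 of the 231 Fasn-R1812W nuclei in cluster 1. Summed member levels were 3371 and 3089 CPM in precursor nuclei, 2553 and 1987 in neuroblast nuclei, and 524 and 527 in the leukocyte and microglia nuclei of the Fasn-R1812W library, where the named neuron classes of the NeuN+ libraries had 4502 to 5831.

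Of 24 members compared, 10 were higher in precursor than in neuroblast nuclei and 1 lower, where 17.3% and 2.55% of 7245 genes were. The median log2 ratio was 1.22 for the members and 0.44 for all genes. Kcnip3 was at 564 and 530.3 CPM in precursor nuclei and 73.4 and 118 CPM in neuroblast nuclei. Kcnj10 was at 451 and 317 CPM against 64.7 and 106 CPM, and its partner Kcnj16 at 197 and 178 CPM against 0 and 11.2 CPM. Thus 3 of the 4 members called higher in the EdU+ gate were at least 2-fold higher in precursor than in neuroblast nuclei in both libraries. The fourth, Kcnh8, was less than 2-fold apart (96.1 and 99.02 CPM against 68.5 and 85.3 CPM). Among Kv4 genes, Kcnd3 was at 197 and 353 CPM against 63.9 and 20.3 CPM, and Kcnd1 at 42.5 and 25.5 CPM against 0 and 4.08 CPM. Kcnmb4 (70.6 and 64.2 CPM against 0.412 and 7.97 CPM) and the acid-sensitive leak channel Kcnk3 (36.6 and 42.4 CPM against 0 and 0.285 CPM) were also higher in precursor nuclei. Kcnc2 and Kcnk2 were also among the 10. With nuclei assigned singly by marker score, 6 were higher in precursor nuclei, and the ratio of Kcnd1 in Fasn-R1812W (-0.09) was reversed, as was that of Kcnc2 in WT (-1.15) at a resolution of 1.5.

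Kcnh7 was the member higher in neuroblast nuclei, at 145 and 154 CPM against 21.2 and 12.8 CPM in precursor nuclei. Its ratio stayed past 2-fold under every alternative run, but it no longer passed the filters on level and 1-nucleus share together with 30 principal components, with assignment by marker score, or without the 5% of nuclei with most genes. Neuroblast levels varied greatly between the libraries for other neuronal members. Kcnip2 was at 245 and 0.285 CPM there, with 67.7% of the WT reads from 1 nucleus. In the Fasn-R1812W library, 14 members reached 5 CPM in leukocyte nuclei and 12 in microglia nuclei, against 44 in precursor nuclei. Kcnk6, a 2-pore-domain gene named here after its values were seen, was at 109 and 145 CPM in microglia nuclei (3 and 31 nuclei) and at or under 7.80 CPM in every other named class. Of the Fasn-R1812W reads 46.7% came from 1 nucleus. Kcnab2 was at 125 CPM in leukocyte nuclei. Kcnj10 was at 107 CPM in leukocyte nuclei, but 81.9% of these reads came from 1 nucleus, as did all Kcne1l reads of that class. The 4 astrocyte-like nuclei of NeuN+ WT had Kcnj10 at 867 CPM, against 4.39 and 29.3 CPM in granule and 0.322 and 0.392 CPM in CA1 nuclei.

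Genotype was compared last, which addresses whether the Fasn-R1812W allele goes with another level of these genes. Over both gates, no member was called (edgeR's quasi-likelihood test, 0.00574% of all genes called), and the adjusted p was 1 for each of the 79. At an unadjusted p under 0.05 there were 2 members and 276 of 17411 genes, and DESeq2 also called 0 members. The 2 members were Kcnj3 and Kcnj10. Kcnj3 went from 267 to 143 CPM between NeuN+ libraries and from 62.7 to 11.96 between EdU+ libraries (log2 ratio -1.62), lower in both Fasn-R1812W libraries. A single nucleus held 29.6% of the Kcnj3 reads of EdU+ WT and 51.5% of those of EdU+ Fasn-R1812W. The Kcnj3 level was also lower in each of the 5 named neuron classes, as in granule nuclei (398 and 192 CPM) and CA1 nuclei (273 and 188 CPM). These classes are parts of the same NeuN+ libraries, so they add no separate check. Kcnj10 went from 21.4 to 10.3 and from 356 to 226 CPM (log2 ratio -0.83), lower in both Fasn-R1812W libraries. The astrocyte marker sum was lower there too, at 863 against 1986 CPM in NeuN+ and 4819 against 5241 in EdU+. Among NeuN+ nuclei, 4 in WT and 0 in Fasn-R1812W were astrocyte-like, the class with the high Kcnj10 level given above. No EdU+ cluster was named astrocyte-like. The precursor marker sum was 13182 against 15965 CPM in EdU+, and within precursor nuclei Kcnj10 was at 451 and 317 CPM in WT and Fasn-R1812W. The part of these cell types in the pooled Kcnj10 values was not tested.

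Within a gate, genotype rests on 2 single libraries, so the ratios below carry no replicate check. In NeuN+ nuclei, 48 members passed a filter of 10 CPM and 10% of nuclei, 1 was at least 2-fold higher in Fasn-R1812W and none was 2-fold lower, where 3.18% and 3.02% of 10865 genes were. The median log2 ratio was 0.03 for these members and 0.02 for all genes. This was Kcns3, at 12.1 and 27.8 CPM (log2 ratio 1.14), with 25.2% of the Fasn-R1812W reads in 1 nucleus. In the interneuron class it was at 60.5 and 152 CPM. No member was 2-fold higher by the mean over nuclei or after thinning to 50000 reads. Kcnq3 went from 299.9 to 216, Kcnn2 from 155 to 246 and Kcnd2 from 241 to 177 CPM, all less than 2-fold apart.

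In EdU+ nuclei, 26 members passed the filter, 3 were at least 2-fold higher in Fasn-R1812W and 1 lower, where 17.4% and 8.01% of 9186 genes were. The median log2 ratio was -0.37 for these members and 0.09 for all genes. The 3 were Kcna1 (7.45 to 26.05 CPM), Kcnab1 (17.5 to 37.5) and Kcnab2 (8.98 to 36.3), a Kv1 gene and 2 of its beta subunits. All 3 passed the filter only through the Fasn-R1812W library, where they were higher. In that order, 5.99%, 3.59% and 2.40% of WT nuclei had a read, against 12.1%, 12.4% and 14.7% of Fasn-R1812W nuclei. Within precursor nuclei Kcna1 was at 7.21 and 39.9 CPM and Kcnab1 at 8.25 and 51.2 CPM, but 71.8% of these Kcnab1 reads came from 1 Fasn-R1812W nucleus. Kcnab2 was at 10.16 and 6.36 CPM in precursor nuclei, and its Fasn-R1812W reads lay in leukocyte (125 CPM) and neuroblast nuclei (79.4 CPM). The leukocyte class itself had 6 WT and 45 Fasn-R1812W nuclei. Kcnd2 was the member lower in Fasn-R1812W, at 237 and 106 CPM (log2 ratio -1.16). Thinned to 50000 reads, 25.7% of WT and 23.6% of Fasn-R1812W nuclei had a Kcnd2 read (unthinned 25.7% and 38.8%). After thinning, the Kcnd2 ratio kept its direction but no member was 2-fold higher in Fasn-R1812W. With every well kept, none was 2-fold lower. In precursor nuclei alone Kcnd2 was at 265 and 169 CPM, and in neuroblast nuclei at 207 and 16.4 CPM, where 1 nucleus held 81.1% of the WT reads.

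**Figure D4:**
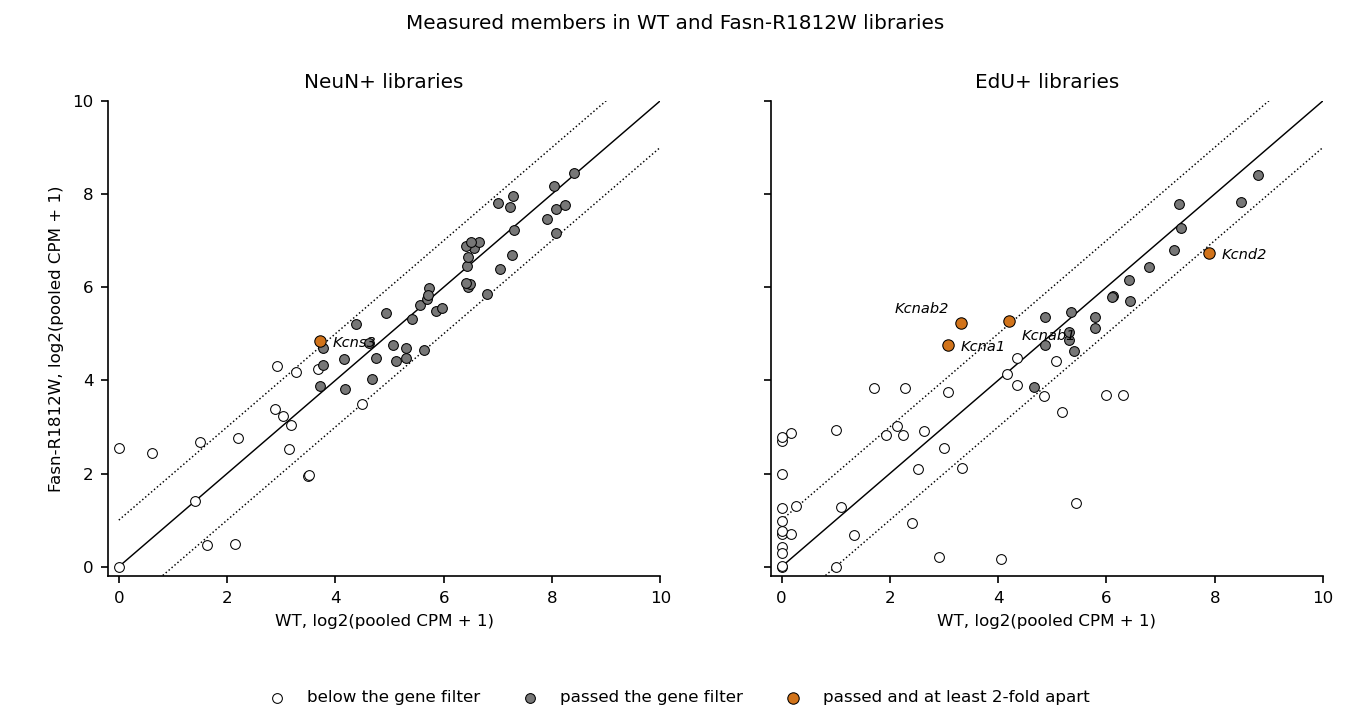
Level of 63 of the 67 measured members in WT (horizontal axis) and Fasn-R1812W (vertical axis) libraries as log2(pooled CPM + 1), NeuN+ on the left and EdU+ on the right; the solid line marks equal levels and the dotted lines a shift of 1 on this scale. In NeuN+ Kcns3 is orange, which marks members that passed the gene filter and were at least 2-fold apart, and in EdU+ so are Kcna1, Kcnab1, Kcnab2 and Kcnd2.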

How the data were processed

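The measurements were Smart-seq2 libraries of single nuclei, in 4 libraries of 384 wells, each the only one of its gate and genotype. The authors deposited whole-number read counts per gene and well for 25567 genes, without molecular identifiers. Trimmomatic 0.36, STAR 2.5.3a and GRCm38.p5 are named per the submitters' processing notes, whereas for the counting program and annotation the sources used here say nothing. Nuclei with at least 1000 genes and 50000 reads were kept, and their counts were summed per library into CPM over nuclear-encoded genes. No nuclei were removed as doublets.

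Gate and genotype were fitted together with edgeR 4.0.16 (R 4.3.3) on the 4 sums, with TMM, filterByExpr and Benjamini-Hochberg adjustment over all genes tested. DESeq2 1.42.0 was an alternative. The edgeR fit was also run on simulated data for the gate comparison, over 18449 genes. It called 50, 49, 50 and 50 of 50 genes altered 8-, 4-, 0.25- and 0.125-fold, and 11 of 18249 unaltered genes. The simulated counts had the same fixed spread for every gene, which was not estimated from these libraries. Only genes with a mean over 5 CPM were altered. In the real edgeR fit, 18 members were called higher in NeuN+, but others with large ratios were not. Among these were Kcns3 (log2 ratio -7.93, adjusted p = 0.0604), Kcng1 (-7.10, 0.0953) and Kcnj6 (-5.42, 0.0974). The simulated shares therefore do not tell how many altered members the fit would find, and a member not called may still differ. Class and within-gate genotype ratios have 1 library per group and no test. They count as called at 2-fold or more after adding 1 CPM. Genes had to reach 10 CPM, with a read in 10% of nuclei (genotype) or with at most 50% of reads from 1 nucleus in the higher class (classes).

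Each gate was clustered with scanpy 1.11.5 (2000 variable genes without the Kcn genes, 20 principal components, 15 neighbours, Leiden resolution 1). The rule that turns markers into names was set after seeing the data: at least 3 markers up 2-fold, and among the 10 leading genes at least 1 own marker and no fewer than of any other list, against the other clusters or else the other gate.

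The members, gene lists and partner list were chosen with earlier results of these data known. Named are the 4 members with the highest CPM in each subfamily, up to 8 called members per direction of each comparison, and a further list of 17 members. Others were named after their values were seen. Filter stretches came from GENCODE M21 transcripts and promoters from a RefSeq table of GRCm38.p6. Alternatives covered filters, scaling, prior, thinning, clustering, left-out libraries and DESeq2. Embryonic nuclei, which the design text also mentions, are not analysed here. Some members, partners and sequences are not reported here by name, although they stay in the counts and sums.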

Additional observations from a re-analysis of the deposited data

How the results depend on the processing

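Precision is limited by 1 library per group, by shallow EdU+ WT nuclei and by single nuclei that hold much of a member's reads. No paired analysis was possible because each group has 1 library and the labels number no replicates. Dropping genotype from the gate fit left 17 members called higher in NeuN+ and 3 higher in EdU+. Between the gates, the 18 members higher in NeuN+ became 0 and the 4 higher in EdU+ became 0 with the stricter filter on nuclei, which kept 5 EdU+ WT nuclei. DESeq2 called 34 and 6. Leaving out each library, with gate as the only term, gave 13 to 35 higher in NeuN+ and 4 to 5 higher in EdU+. Over 20 called members, 186 of the log2 ratios kept direction and call, 33 kept the direction only, and 1 turned (Kcnip3, -1.70 with the stricter filter).

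For genotype in NeuN+, the 1 member 2-fold higher in Fasn-R1812W became 0 by mean CPM per nucleus and after thinning, and 4 with a gene filter of 5 CPM. The 0 lower became 1 by mean CPM, with TMM, with a prior of 0.1 CPM, with the stricter filter and after thinning, and 2 with the 5 CPM filter. In EdU+, the 3 higher became 22 with the stricter filter, 9 with the 5 CPM filter and 0 after thinning. The 1 lower became 5, 10 and, with no filter on nuclei, 0. With the stricter filter Kcnab1 (-2.52) and Kcnd2 (6.73) turned.

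Between classes, the 3 members higher in granule nuclei became 8 and 5 at resolutions of 0.6 and 1.5 and 7 by marker score. The 10 higher in precursor nuclei became 6 by marker score. The 1 higher in neuroblast nuclei became 0 with 30 principal components, by marker score and without the 5% of nuclei with most genes. Many class ratios of called members moved by more than 1.5-fold but kept their direction. For precursor over neuroblast, 18 moved and 51 did not in WT, and 37 moved and 32 did not in Fasn-R1812W. For interneuron over granule and CA1, 37 moved and 108 did not in WT, and 35 and 112 in Fasn-R1812W. For granule over CA1 these were 11 and 52 in WT, and 12 and 51 in Fasn-R1812W. Ratios that turned were Kcnd3 in interneuron WT nuclei (-0.65 with 30 principal components, -0.53 with Kcn genes kept), Kcnc2 in precursor WT nuclei (-1.15 at resolution 1.5), and by marker score Kcnd1 in Fasn-R1812W (-0.093). The cause was not tested.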
